A study of Mus musculus with 4 samples.

Results

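Transcripts of 7 genes that write, maintain or remove DNA methylation were followed in tumour immune cells, namely Dnmt1, Uhrf1, Dnmt3a, Dnmt3b, Tet1, Tet2 and Tet3. They were chosen by symbol, and all 7 were among the 12584 genes of the table. Single CD45+ cells were sorted from tumours of YUMM1.7-OVA RTT, mouse melanoma cells with ovalbumin that had acquired resistance to BRAF-targeted therapy. The tumours grew in Rag2-/- mice, whose own T and B cells are missing. All tumours received ovalbumin-specific OT-1 T cells (ACT) on day 7 and were collected on day 10, that is 72 h later. There were 4 libraries, 1 per group, each a pool of 3 tumours. CTRL tumours carried an empty mCherry vector. IRF3/7 tumours overexpressed Irf3 and Irf7 from an SFFV promoter in the cancer cells, as a bulk-sorted mCherry+ population and not a clone. COX2i tumours were treated by daily gavage with celecoxib, an inhibitor of COX2, and COX2i + 5-AZA tumours also received the cytidine analogue 5-Azacytidine (5-AZA) intraperitoneally.

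DNA methylation in mammals is copied onto newly made strands behind the replication fork by DNMT1, which UHRF1 brings to hemimethylated sites, so that both genes are known to be expressed with the replication machinery. DNMT3A and DNMT3B place methyl groups on sites that had none. The TET enzymes oxidise the methyl group, which leads to its removal, and TET2 is known for its role in myeloid cells. Once built into DNA, 5-AZA traps DNA methyltransferases on it. The counts are of transcripts, so they hold no measure of methyltransferase protein or of DNA methylation.

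The members lie on separate chromosomes and are all annotated as protein-coding (GENCODE on GRCm38). Dnmt1 (ENSMUSG00000004099) spans chr9:20907209-20959888 on the minus strand and Uhrf1 (ENSMUSG00000001228) chr17:56303321-56323486 on the plus strand. Dnmt3a (ENSMUSG00000020661) spans chr12:3806007-3914443 and Dnmt3b (ENSMUSG00000027478) chr2:153649450-153687730, both on the plus strand. Tet1 (ENSMUSG00000047146) spans chr10:62804570-62908996, Tet2 (ENSMUSG00000040943) chr3:133463679-133545139 and Tet3 (ENSMUSG00000034832) chr6:83362373-83459084, all on the minus strand.

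Because Dnmt1 and Uhrf1 varied with replication genes in what follows, the start-site windows of the 7 genes (250 bases before to 50 after a start, RefSeq, GRCm38.p6) were searched on both strands for the E2F letters TTTCCCGC, TTTCGCGC, TTTGCCGC and TTTGGCGC, where E2F factors are the regulators of S-phase genes. These letters were in 2.26% of 32851 windows of all genes. Among 12 windows of the members they were in 2, the third Dnmt1 window (chr9:20952574-20952873, minus strand, 2 matches) and the second Uhrf1 window (chr17:56304063-56304362, plus strand, 1 match). Both are shown 5′ to 3′ with the matched letters in capitals.
Dnmt1: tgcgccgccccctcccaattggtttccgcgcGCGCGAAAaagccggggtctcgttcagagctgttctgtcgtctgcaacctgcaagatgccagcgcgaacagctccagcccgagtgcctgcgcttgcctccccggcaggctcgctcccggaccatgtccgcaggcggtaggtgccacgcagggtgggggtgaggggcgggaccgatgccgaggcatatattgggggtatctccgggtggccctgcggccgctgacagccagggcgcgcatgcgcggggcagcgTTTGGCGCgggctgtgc
Uhrf1: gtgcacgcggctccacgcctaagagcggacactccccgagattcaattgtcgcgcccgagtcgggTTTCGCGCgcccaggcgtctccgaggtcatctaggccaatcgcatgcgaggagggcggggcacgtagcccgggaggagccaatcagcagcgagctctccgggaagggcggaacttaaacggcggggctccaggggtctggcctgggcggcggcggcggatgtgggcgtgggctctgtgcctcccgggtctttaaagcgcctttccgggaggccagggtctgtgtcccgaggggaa
The first Dnmt1 match is at base 32 of the window and reads as the other strand of TTTCGCGC, and the next is at base 284. The Uhrf1 match is at base 66. The interferon letters GAAANNGAA (in 8.56% of all windows) and TTCNNNGAA (in 8.30%) were in none of the 12. In CpG dinucleotides, the sites these enzymes act on, the windows shown held 33 each, the Tet2 window held 57, more than 99.8% of all windows, and the median over all windows was 7. Each E2F string holds a CpG, and both matched windows had more CpG than 91.4% of all windows. The share of all windows with these letters is therefore no rate for windows so rich in CpG. A match of letters is a description of the window and not evidence of binding.

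The libraries held 6329 to 10032 cells and 26356819 to 78722763 UMIs (unique molecular identifiers, counted molecules). The IRF3/7 library was the shallowest, with a median of 3168 UMIs per cell against 6039.5 to 7502 in the others, and 10018 of 34447 cells shared a 16-base barcode with another library, the full barcodes all being distinct. In the cells annotated Myofibrobl, Irf7 was at 14909 CPM (the UMIs of a gene scaled to 1e+06 UMIs) in IRF3/7 and at 8.20 in CTRL, which checks that label. Leukocyte markers (3 genes) summed to 124 to 491 CPM in Myofibrobl and to 2964 CPM or more in each other class, so that class held non-immune cells left after the sort. Cells annotated TAM_cycling had 1920 to 2358 CPM of 4 proliferation markers. A level is the UMIs of a gene over the total UMIs of the cells considered. Levels are not compared between genes, since the number of probes per gene can differ and was not checked. Intervals are 95% and cover counting error only, and with 1 library per group no difference had a replicate check or a test.

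Maintenance genes were read first, by cell class. Dnmt1 was highest in TAM_cycling, with 311 CPM in CTRL, 322 in COX2i and 261 in COX2i + 5-AZA, and in NK cells, with 227 in IRF3/7, 404 in COX2i (50 cells) and 239 in COX2i + 5-AZA. The ranges of these classes over libraries overlapped, and that of NK cells lay above the next class, cDC1 (207 and 217 CPM). Myofibrobl (140 to 245 CPM) overlapped cDC1 and lay above Ctsk_Macro (104 and 119). From Ctsk_Macro down to Monocyte_3, no neighbouring classes had separate ranges, and Neutro was lowest with 51.8 CPM in CTRL and 26.4 in COX2i + 5-AZA.

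Uhrf1 had a steeper profile over the same classes. It was at 233, 238 and 213 CPM in TAM_cycling of CTRL, COX2i and COX2i + 5-AZA, all above the 168 and 205 in cDC1 and the 139 to 192 in NK cells. Myofibrobl had 126, 44.6, 135 and 155 CPM in CTRL, IRF3/7, COX2i and COX2i + 5-AZA, so the IRF3/7 library was low among these non-immune cells. TAM_C1q had 10.9 to 22.0 CPM, TAM_Spp1 6.29 to 15.2 and Monocyte_1 2.83 to 16.8. The means of the last pair were 10.1 and 9.39 CPM, far below the 228 CPM of TAM_cycling.

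**Figure D1:**
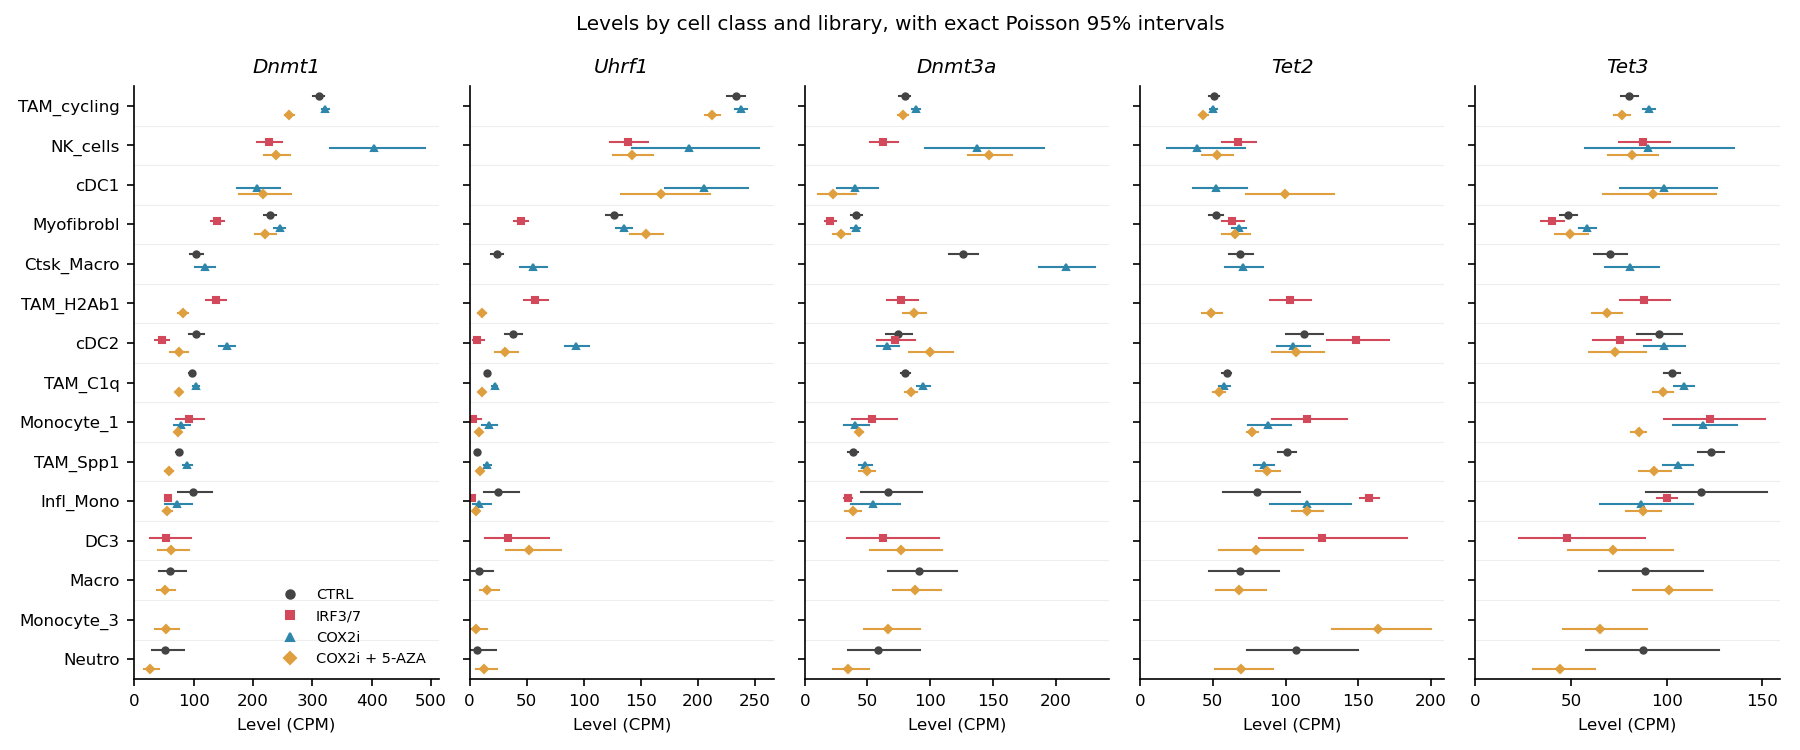
Levels (CPM, x axis) of 5 members in each cell class (y axis) and library (symbols: circle CTRL, square IRF3/7, triangle COX2i, diamond COX2i + 5-AZA) with exact Poisson 95% intervals, for class and library pairs of at least 50 cells. Dnmt1 and Uhrf1 are highest in TAM_cycling, NK cells, cDC1 and Myofibrobl, whereas the mean of Tet2 over libraries is lowest in TAM_cycling, at 43.5 to 50.8 CPM.

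TAM_cycling gave most Uhrf1 UMIs of the libraries that held many such cells. Its share was 65.9% in CTRL, 75.8% in COX2i and 73.5% in COX2i + 5-AZA, although its cells gave 23.2%, 44.9% and 23.7% of all UMIs there. For Dnmt1 the shares were 44.4%, 64.3% and 48.6%. In the IRF3/7 library, with 20 TAM_cycling cells, NK cells gave 34.6% of Uhrf1 UMIs and 7.63% of all UMIs.

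Across 40 sums of a class in a library, the level of Dnmt1 followed the summed level of 40 S-phase genes (S list, which holds no member), with Pearson's r = 0.95 on the log2(CPM + 1) scale, and Uhrf1 gave 0.92. Without the 3 TAM_cycling sums, r was 0.94 and 0.90 over 37 sums, so the relation did not rest on that class alone. Other classes with a high S-list level stayed in, among them NK cells (3632 to 5284 CPM) and cDC1 (4182 and 3708). The value without TAM_cycling is therefore no check on cells that do not cycle. For Dnmt3b r was 0.68, on few UMIs, for Tet1 0.47, for Dnmt3a 0.13, for Tet3 -0.06 and for Tet2 -0.58. The sums share libraries, depth and cell sources, so these values are descriptions without a p-value. Of 7480 genes with a mean of at least 20 CPM, the levels most alike to Dnmt1 were those of Rrm1 (r = 0.95), Mcm7 (0.93) and Pmf1 (0.93). To Uhrf1 they were those of Smc4 (0.95), Pole (0.95) and Mcm7 (0.95). RRM1 makes deoxynucleotides, MCM7 is part of the replicative helicase, POLE is a replicative polymerase and SMC4 a condensin subunit. Rrm1 is itself on the S list.

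**Figure D2:**
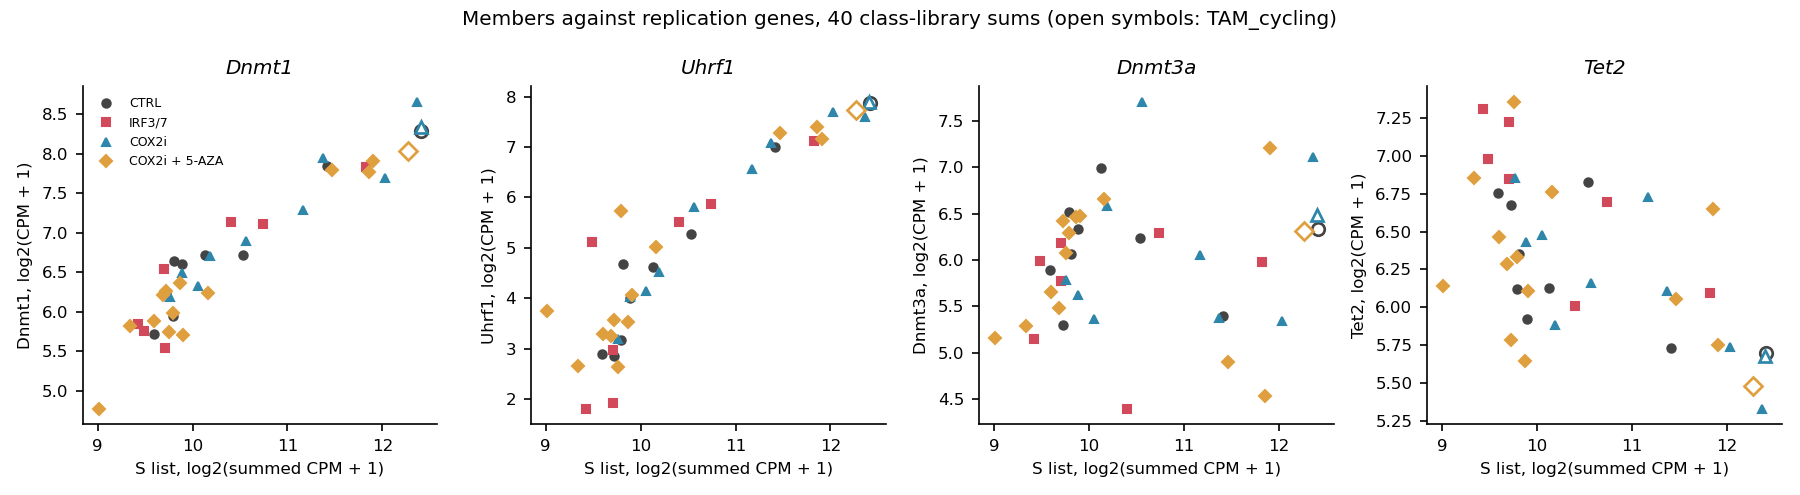
Level of 4 members, log2(CPM + 1), against the summed level of the S list, log2(summed CPM + 1), over 40 class and library sums (symbols: libraries, open symbols: TAM_cycling). Dnmt1 (r = 0.95) and Uhrf1 (r = 0.92) lie along a rising line also without TAM_cycling, Dnmt3a (r = 0.13) shows none, and Tet2 (r = -0.58) falls.

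Cells with at least 1 UMI of Mki67 or Top2a, which are transcribed in proliferating cells, were then set against the other cells of the same class and library, in 20 pairs of immune classes with 50 cells on each side (Myofibrobl was left out). Uhrf1 was higher in the cells with such a UMI in 19 of 20 pairs, with the interval of the ratio above 0 in 13, and Dnmt1 in 16 with the interval above 0 in 11. In cDC2 of COX2i, Uhrf1 was at 182 CPM in these cells and at 19.7 in the others, in cDC2 of CTRL at 121 and 14.3, and in Ctsk_Macro of CTRL at 70.6 and 3.02. In these 3 pairs the cells with such a UMI had the far higher Uhrf1 level. The exception was TAM_H2Ab1 of COX2i + 5-AZA, with 9.20 and 11.3 CPM. In TAM_C1q the gaps were small, at 17.3 against 13.8 CPM of Uhrf1 in CTRL, 23.6 against 20.7 in COX2i and 12.9 against 9.86 in COX2i + 5-AZA. Cells with a Mki67 or Top2a UMI were deeper, for example with a median of 5803 against 4206 UMIs in cDC2 of COX2i, and the part of depth was not tested. A single such UMI does not make a cell a proliferating one, since free RNA can give it. Mature neutrophils do not divide, and in COX2i + 5-AZA the Neutro cells carried one in 5.61% (2.83 to 9.82, exact binomial interval) of 196 cells at a median of 2626.5 UMIs, against 16.9% (12.5 to 22.0) of 261 cDC2 cells at 4762 UMIs and 28.7% of TAM_C1q cells at 9345. In CTRL the Neutro class gave no such baseline, since its 65 cells had 33355 CPM of 5 macrophage markers and 24461 of 4 neutrophil markers, against 4439 and 89640 in COX2i + 5-AZA. The shares were not brought to one depth, so the split is by a detected UMI.

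**Figure D3:**
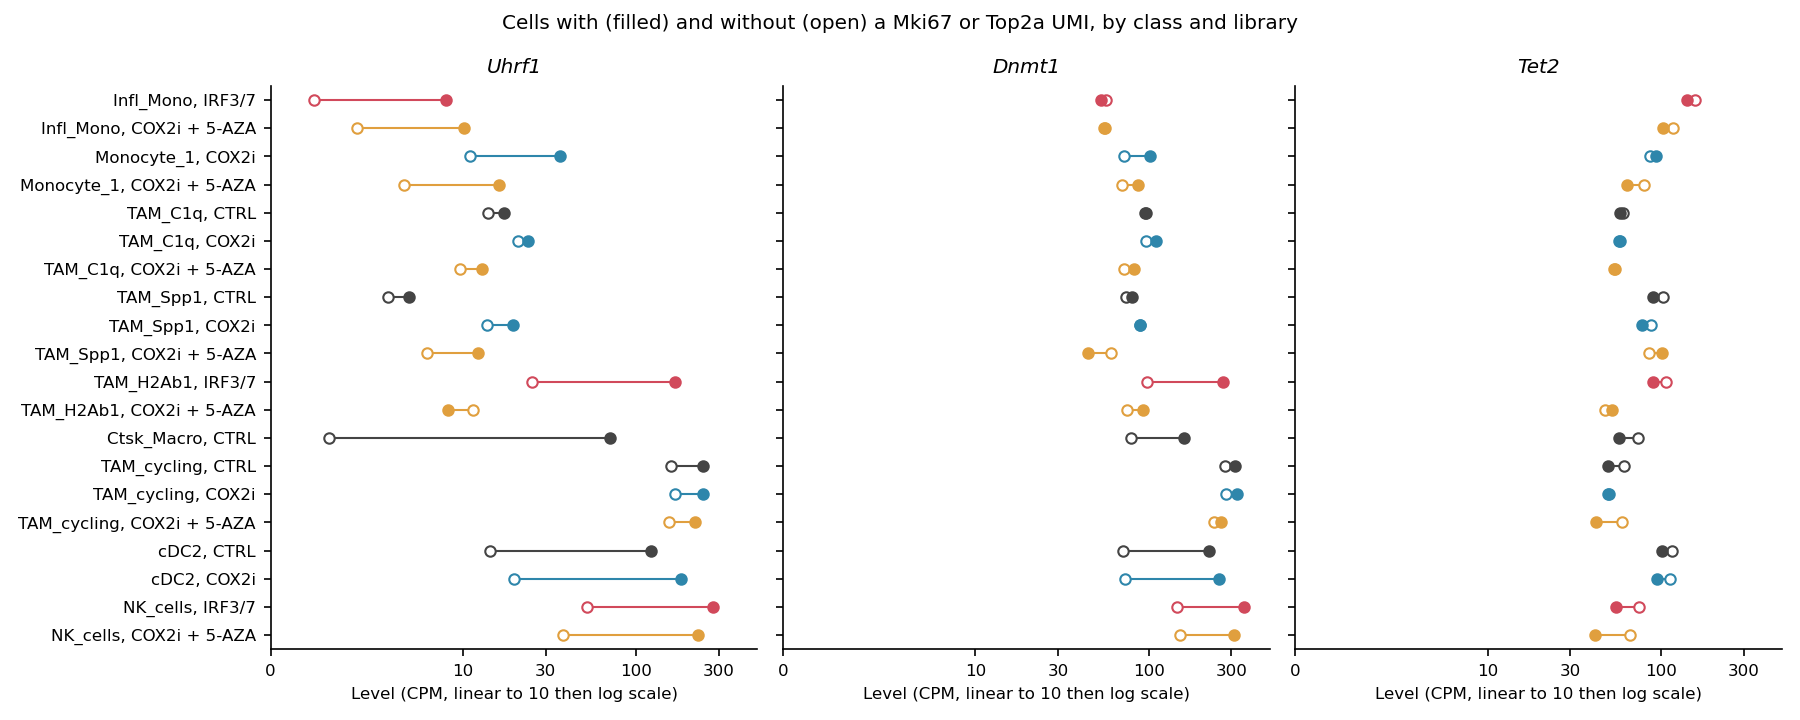
Levels of Uhrf1, Dnmt1 and Tet2 (CPM, linear to 10 and then a log scale) in cells with (filled) and without (open) a Mki67 or Top2a UMI, for 20 immune class and library pairs, coloured by library. Uhrf1 is higher in cells with such a UMI in 19 of 20 pairs and Dnmt1 in 16, and Tet2 in 4.

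The de novo enzymes had other profiles. Dnmt3a was highest in Ctsk_Macro, with 126 CPM in CTRL and 208 in COX2i, and the libraries with fewer than 50 such cells gave 317 (IRF3/7, 13 cells) and 279 (COX2i + 5-AZA, 37 cells). NK cells had 62.2 CPM in IRF3/7, 137 in COX2i and 147 in COX2i + 5-AZA. Macro, TAM_C1q, TAM_cycling and TAM_H2Ab1 followed at means of 82.2 to 89.3 CPM with overlapping ranges, so cycling macrophages did not stand out. At the low end were TAM_Spp1 (38.4 to 49.5 CPM), Myofibrobl (20.1 to 41.0) and cDC1 (39.7 and 22.1). The genes most alike in pattern were Smim8 (r = 0.77), Ogdh (0.73) and Nek7 (0.72).

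Dnmt3b was sparse, with 134, 63, 163 and 159 UMIs in the CTRL, IRF3/7, COX2i and COX2i + 5-AZA libraries. Its highest class was NK cells, with 17.9 CPM in IRF3/7 (36 UMIs), 15.7 in COX2i (4 UMIs) and 11.1 in COX2i + 5-AZA (21 UMIs), a range apart from the next class, cDC1, at 6.36 CPM or less. NK cells gave 57.1% (44.0 to 69.5, exact binomial interval) of the Dnmt3b UMIs of the IRF3/7 library from 7.63% of all its UMIs. DC3, Macro and Neutro had 0 UMIs, where the depth allowed at most 3.14 to 14.4 CPM (3 counts).

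The TET genes also differed in where they were found. Tet1 had 24, 9, 32 and 10 UMIs in the 4 libraries. The non-immune Myofibrobl cells held 10, 1, 17 and 5 of them, and cDC1 held 4 of the 9 in IRF3/7. In 6 classes no Tet1 UMI was seen, the deepest being Monocyte_1 of COX2i + 5-AZA, where at most 0.142 CPM was allowed.

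Tet2 was highest in monocytes and cDC2. Monocyte_3 had 163 CPM in COX2i + 5-AZA, the only library with 50 such cells, and cDC2 had 113, 149, 105 and 107 CPM in CTRL, IRF3/7, COX2i and COX2i + 5-AZA. Infl_Mono had 80.5, 157, 115 and 115 CPM. By its mean the lowest class was TAM_cycling, at 50.8, 50.2 and 43.5 CPM in CTRL, COX2i and COX2i + 5-AZA, with a range overlapping that of NK cells (39.2 to 67.2) but not that of TAM_C1q (54.2 to 59.5). Across classes Tet2 ran opposite to Dnmt1 (r = -0.60) and Uhrf1 (r = -0.59). Its pattern was most alike to those of Ep300 (r = 0.80), a histone acetyltransferase, Ifitm2 (0.75), an interferon-induced membrane protein, and Nod2 (0.74), a sensor of bacterial cell walls.

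Tet3 had no neighbouring classes whose ranges were separate. It was at means of 98.1 to 109 CPM in Monocyte_1, TAM_Spp1, TAM_C1q and Infl_Mono and lowest in Myofibrobl at 39.9 to 58.5. The genes most alike were Ccr2 (r = 0.77), the receptor by which monocytes leave the marrow, Lpxn (0.77) and Snf8 (0.77).

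Within TAM_cycling, cells were placed by the share of S-list UMIs among their S-list and G2M-list UMIs (52 genes of mitosis, 51 in the table), in 3 ranges of a score that are not types. Of the CTRL, COX2i and COX2i + 5-AZA cells, 34.7%, 26.5% and 25.8% were mostly S and 35.0%, 38.6% and 37.4% mostly G2M. Uhrf1 was at 308, 359 and 310 CPM in the mostly S cells and at 102, 112 and 88.9 in the mostly G2M cells, log2 ratios of 1.59, 1.68 and 1.80. Dnmt1 was at 349, 365 and 309 CPM against 216, 238 and 175, log2 ratios of 0.69, 0.62 and 0.82. Both genes were thus lowest in mostly G2M cells in all 3 libraries. In the mixed cells Uhrf1 was at 306, 298 and 272 CPM, at or below the mostly S cells, whereas Dnmt1 was at 378, 389 and 317 CPM, above them in each library.

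Dnmt3a shared this order, at 94.8, 117 and 97.7 CPM in mostly S cells and 63.2, 68.3 and 63.0 in mostly G2M cells. Tet2 had the opposite sign in the same libraries, with log2 ratios of -0.17 (-0.41 to 0.08), -0.26 (-0.44 to -0.09) and -0.18 (-0.46 to 0.08), of which the COX2i interval lay below 0. Tet3 had -0.03, 0.00 and -0.17, with intervals that all held 0. Dnmt3b and Tet1 had too few UMIs to be placed.

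**Figure D4:**
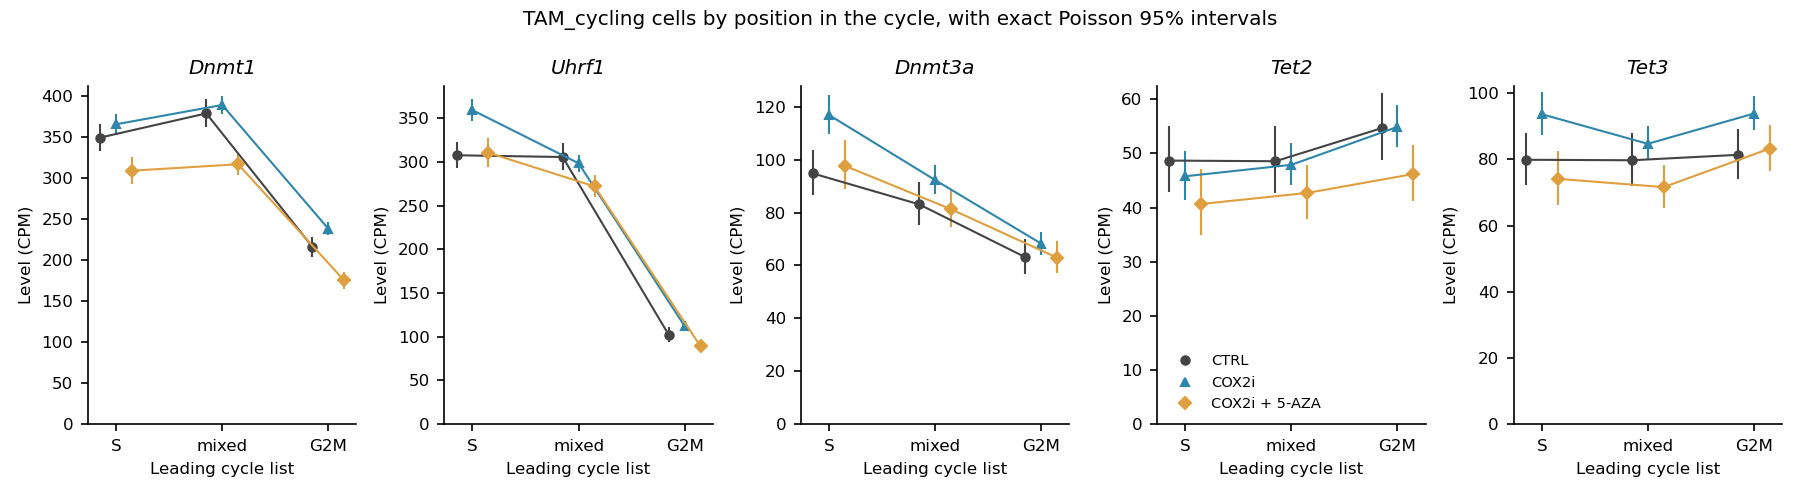
Levels (CPM, y axis from 0) of 5 members in TAM_cycling cells mostly S, mixed and mostly G2M by their list UMIs, in CTRL (circles), COX2i (triangles) and COX2i + 5-AZA (diamonds), with exact Poisson 95% intervals. Uhrf1, Dnmt1 and Dnmt3a are lowest in mostly G2M cells in each library, and Dnmt1 of COX2i + 5-AZA is below COX2i in all 3 ranges.

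Libraries were compared in 3 populations: all cells, non-cycling monocytes and macrophages (8 classes, without TAM_cycling) and TAM_cycling. Ratios are log2 of CPM, and a gene was counted when it was past 2-fold and had at least 20 UMIs in both libraries together. CTRL serves in 3 of the comparisons, and COX2i and COX2i + 5-AZA in 2 each, so the comparisons share libraries. The median over all genes was itself shifted, by -0.29, 0.04, -0.18 and -0.21 in all cells and by -0.49, -0.01, -0.19 and -0.18 in the non-cycling cells for IRF3/7, COX2i and COX2i + 5-AZA against CTRL and, last, COX2i + 5-AZA against COX2i, and values relative to it are given where they change a reading.

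Over all cells, Dnmt1 was at 162, 95.2, 225 and 127 CPM in CTRL, IRF3/7, COX2i and COX2i + 5-AZA, and Uhrf1 at 82.1, 30.6, 141 and 68.5. Both were thus highest in COX2i and lowest in IRF3/7, and the S list summed to 2268, 1209, 3367 and 1983 CPM in the same order. Dnmt3a was at 70.4, 42.5, 78.9 and 67.2 CPM, Tet2 at 65.9, 126, 61.8 and 65.9, and Tet3 at 91.0, 86.2, 91.6 and 83.2. Dnmt3b stayed between 1.97 and 2.39 CPM and Tet1 between 0.131 and 0.406. In such sums, fewer cells of a class and less RNA per cell cannot be told apart.

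Of the 7 members, 1 was past 2-fold in IRF3/7 against CTRL, where 26.7% of all genes were, namely Uhrf1 at -1.43 (-1.53 to -1.32). None was in COX2i against CTRL (background 5.61%), where Uhrf1 was at 0.78 and Dnmt1 at 0.47 beside 0.57 for the S-list sum. In COX2i + 5-AZA against CTRL (17.8%) 1 was, Tet1 at -1.43 (-2.66 to -0.31) on 10 and 24 UMIs. In COX2i + 5-AZA against COX2i (18.7%) 2 were, Tet1 at -1.63 and Uhrf1 at -1.04 (-1.09 to -0.99), beside -0.82 for Dnmt1 and -0.76 for the S list. These counts were near the background share and are no result about the members.

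The class mix moved with these ratios. TAM_cycling was 1457 cells in CTRL, 20 in IRF3/7, 3164 in COX2i and 1320 in COX2i + 5-AZA. With each class weighted as in the control library of the comparison, over classes with 50 cells in both, COX2i against CTRL fell from 0.78 to 0.17 for Uhrf1 and from 0.47 to 0.11 for Dnmt1. In COX2i + 5-AZA against COX2i the weighted ratios were -0.16 and -0.31. In IRF3/7 against CTRL they were -1.57 and -0.76, from 3 classes that held 77.4% of IRF3/7 cells but 14.4% of CTRL cells.

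In non-cycling monocytes and macrophages, 6 members had enough UMIs, all but Tet1. IRF3/7 against CTRL had 1 member past 2-fold, where 37.8% of all genes were, and the 5-AZA library against COX2i had 1 (14.7% of all genes). COX2i against CTRL (5.93%) and the 5-AZA library against CTRL (18.3%) had none. The first was Tet2, at 148 CPM (143 to 154) in IRF3/7 against 72.0 (69.3 to 74.7) in CTRL, 69.2 in COX2i and 73.0 in COX2i + 5-AZA. In these sums the IRF3/7 library thus stood apart from 3 libraries that lay close together, but the class mix differed. Infl_Mono was 86.4% of these cells in IRF3/7 and 1.51% in CTRL. Within Infl_Mono, Tet2 was at 80.5, 157, 115 and 115 CPM in CTRL, IRF3/7, COX2i and COX2i + 5-AZA. Over the summed cells, the Tet2 log2 ratio of IRF3/7 to CTRL was 1.05 (0.97 to 1.12), and 1.53 relative to the median gene. It was under 2-fold with the mean over cells (0.88), with cells thinned to 2000 UMIs (0.79), in the shared class (0.97) and without cells that had a Mki67 or Top2a UMI (0.99), and its sign did not turn under the alternatives run.

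Dnmt3a moved the other way in the IRF3/7 library, at 42.8 CPM against 73.4 in CTRL, a log2 ratio of -0.78 and -0.29 relative to the median gene. Dnmt1 was at 68.1 against 91.1 CPM (-0.42) and Uhrf1 at 9.49 against 13.5 (-0.51), but relative to the median gene these were 0.07 and -0.02, so both were close to 0 on that scale. Among cells with more than 2000 detected genes, the Uhrf1 ratio turned to 0.43. It was past 2-fold lower without cells that had a Mki67 or Top2a UMI, and in the shared class given below. The Uhrf1 sum of IRF3/7 mixed unlike classes, at 57.3 CPM in TAM_H2Ab1 (385 cells) and 2.51 in Infl_Mono (4335 cells). CTRL held 19 TAM_H2Ab1 cells. Tet3 was at 99.6 against 105 CPM (-0.08), which turned to 0.41 relative to the median gene.

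The IRF3/7 and CTRL libraries had little class overlap, and Infl_Mono was the only non-cycling monocyte or macrophage class with 50 cells in both, with 4335 cells in IRF3/7 and 93 in CTRL. Within it Tet2 was at 157 against 80.5 CPM, a log2 ratio of 0.97 (0.51 to 1.46). Uhrf1 was at 2.51 against 24.8 CPM, Dnmt1 at 56.6 against 99.1 and Dnmt3a at 34.4 against 66.1, log2 ratios of -3.30, -0.81 and -0.94. The CTRL value of Uhrf1 rests on 12 UMIs. Uhrf1, Dnmt1 and Dnmt3a were thus lower and Tet2 higher, where the median gene of that class was at -0.23. The class itself differed between the libraries: 5 macrophage markers summed to 9121 CPM in IRF3/7 and 48333 in CTRL, 3 monocyte markers to 10453 and 3087, and 4 proliferation markers to 30.7 and 231, with none of these at 0. Their part in the ratios was not tested.

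In 2 further classes shared by these libraries, the signs were alike. In cDC2, Tet2 was at 149 against 113 CPM (0.40, 0.13 to 0.66), Uhrf1 at 6.86 against 37.7 and Dnmt1 at 45.8 against 104, while Dnmt3a at 71.7 against 74.7 had an interval of -0.43 to 0.30. Proliferation markers in cDC2 summed to 48.1 and 439 CPM, 3 monocyte markers to 6466 and 993 and 5 macrophage markers to 741 and 1657, with none of these at 0, and their part in the ratios was not tested. In the non-immune Myofibrobl cells, Tet2 was at 63.3 against 52.2 CPM (0.28, 0.06 to 0.49), Dnmt3a at 20.1 against 41.0 (-1.03) and Uhrf1 at 44.6 against 126 (-1.50), with proliferation markers at 456 and 925.

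COX2i against CTRL gave small ratios for all members but Uhrf1, which was at 21.8 against 13.5 CPM in the non-cycling cells, 0.69 (0.51 to 0.86). The S-list sum was at 0.26 in the same cells, and without cells that had a Mki67 or Top2a UMI the Uhrf1 ratio was 0.73. It was 0.53 in TAM_C1q, 1.28 in TAM_Spp1, 1.23 in Ctsk_Macro, 1.31 in cDC2 and 0.03 in TAM_cycling. Uhrf1 was therefore higher with celecoxib in 4 immune classes outside the cycling class, with intervals above 0 in each, but not in Infl_Mono, where it was at 8.19 against 24.8 CPM (-1.60, -3.46 to 0.01) on 5 and 12 UMIs. The 4 proliferation markers moved with these ratios, from 439 CPM in CTRL to 924 in COX2i in cDC2, from 229 to 420 in Ctsk_Macro, from 78.6 to 129 in TAM_Spp1 and from 204 to 255 in TAM_C1q. The 5 macrophage markers also differed, from 59464 CPM in CTRL to 29932.5 in COX2i in TAM_C1q, from 26964 to 9358 in Ctsk_Macro and from 14999 to 10318 in TAM_Spp1. In cDC2 they were at 1657 and 1679 CPM. The part of these marker changes in the ratios was not tested. In cDC2, cells with a Mki67 or Top2a UMI were 116 of 645 in CTRL and 251 of 666 in COX2i, and among cells without one the Uhrf1 ratio was 0.47 (-0.27 to 1.21). Among such cells it was 1.17 (0.64 to 1.72) in TAM_Spp1 and 0.58 (0.28 to 0.87) in TAM_C1q, about as large as in the whole class, and 1.39 (-0.23 to 3.00) in Ctsk_Macro on 8 UMIs in each library. Dnmt3a was at 84.7 against 73.4 CPM (0.21, 0.13 to 0.29), and within classes at 0.72 in Ctsk_Macro, 0.33 in TAM_Spp1 and 0.24 in TAM_C1q.

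With 5-AZA added, Uhrf1 in the non-cycling cells was at 9.67 CPM against 21.8 in COX2i and 13.5 in CTRL. The log2 ratio to COX2i was -1.17 (-1.35 to -0.996), or -0.99 relative to the median gene, beside -0.43 for the S-list sum. It was under 2-fold with size factors (-0.98) and at the class mix of COX2i (-0.96). It was below 0 in TAM_C1q (-1.02), TAM_Spp1 (-0.80), Monocyte_1 (-0.97) and cDC2 (-1.58), all with intervals below 0, but not in Myofibrobl (0.19). Proliferation markers were lower as well in these 4 immune classes, for example at 318 against 924 CPM in cDC2 and 148 against 255 in TAM_C1q. Among cells without a Mki67 or Top2a UMI, Uhrf1 was at 9.86 against 20.7 CPM in TAM_C1q, 8.15 against 13.8 in TAM_Spp1 and 6.94 against 10.9 in Monocyte_1. In cDC2 of COX2i + 5-AZA, 44 cells held such a UMI, too few for that split. The part of proliferation in the ratios was not tested. Dnmt1 was at 71.5 against 97.9 CPM in COX2i (-0.45, -0.53 to -0.38) and 91.1 in CTRL (-0.35). Dnmt3a was at 62.1 against 84.7 in COX2i (-0.45), of which -0.12 remained at the class mix of the COX2i library, and Tet2 at 73.0 against 69.2 (0.08).

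Cycling cells were compared with cycling cells in TAM_cycling, where 3 libraries had at least 1320 cells. No member of 6 was past 2-fold there, against 4.36% of genes for COX2i to CTRL, 12.2% for COX2i + 5-AZA to CTRL and 10.1% for COX2i + 5-AZA to COX2i. Dnmt1, the main target of 5-AZA, was at 311 CPM (302 to 319) in CTRL, 322 (316 to 328) in COX2i and 261 (254 to 269) in COX2i + 5-AZA, and the last interval did not overlap the others. The log2 ratio to COX2i was -0.30 (-0.35 to -0.25) and to CTRL -0.25 (-0.31 to -0.19), where the median gene was at -0.09 in both and the S-list sum at -0.13 and -0.14. Among all genes tested, these ratios stood at percentiles 24.0 and 33.4, so lower ratios were common and the fall was not particular to Dnmt1. The Dnmt1 ratio was below 0 in each range of the cycle, at -0.24 in mostly S, -0.30 in mixed and -0.44 in mostly G2M cells against COX2i. The ratio to COX2i was between -0.34 and -0.22 under the alternatives of scaling, cell filters and depth, so the sign did not turn.

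The other members of TAM_cycling differed less between libraries. Uhrf1 was at 233, 238 and 213 CPM in CTRL, COX2i and COX2i + 5-AZA, a ratio to COX2i of -0.16, near the S-list sum. Dnmt3a was at 79.7, 88.6 and 78.5 CPM and Tet3 at 80.4, 90.6 and 76.6, both highest in COX2i. Tet2 was at 50.8, 50.2 and 43.5, a ratio to COX2i of -0.21 (-0.33 to -0.09) that was -0.04 when cells were thinned to 2000 UMIs. Dnmt3b was at 2.22, 2.41 and 2.55 CPM with overlapping intervals.

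**Figure D5:**
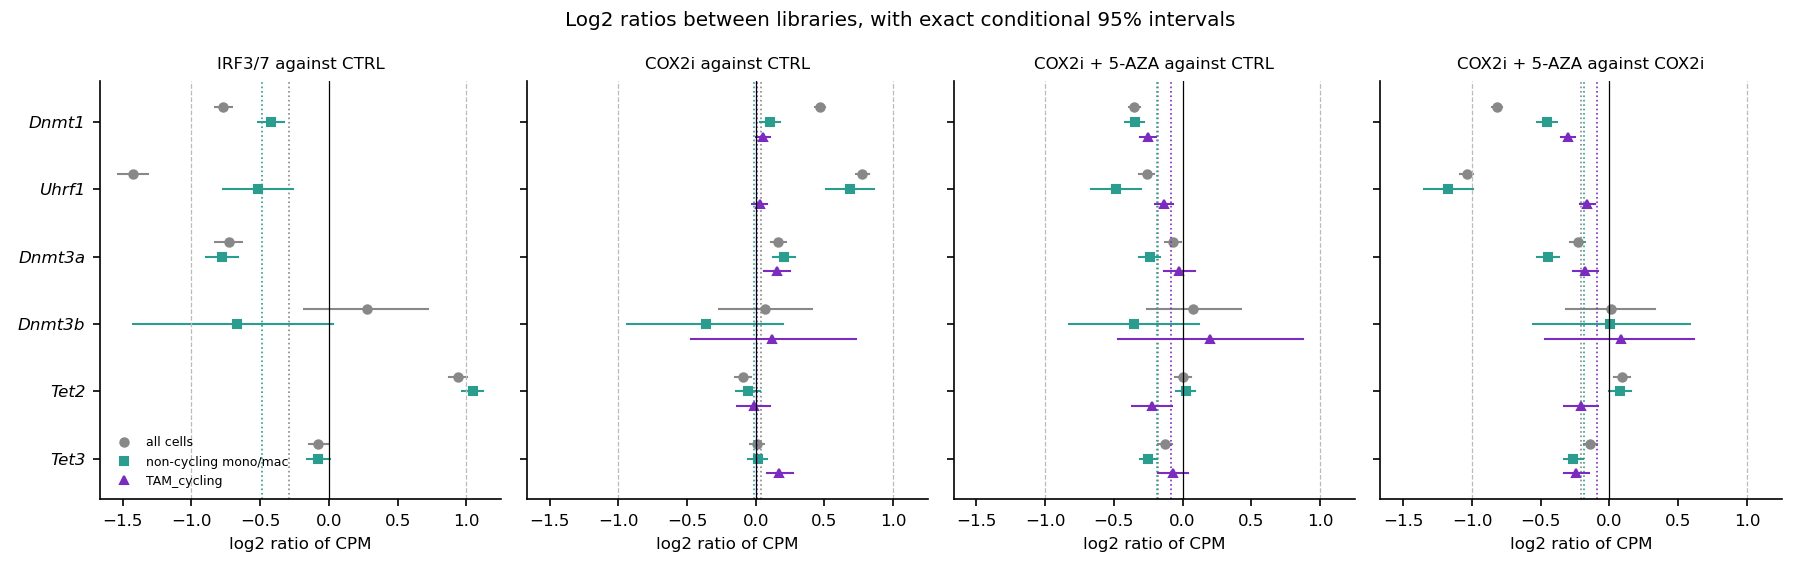
Log2 ratios of CPM (x axis) of 6 members with exact conditional 95% intervals in all cells (circles), non-cycling monocytes and macrophages (squares) and TAM_cycling (triangles) for 4 comparisons, with dotted lines at the median of all genes and dashed lines at 2-fold. In COX2i + 5-AZA against COX2i, Uhrf1 is at -1.04 over all cells and at -0.16 in TAM_cycling, and in IRF3/7 against CTRL Tet2 is at 1.05 in the non-cycling cells.

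Partners of the members were read from lists, by the genes past 2-fold in non-cycling monocytes and macrophages. Of all genes tested there, 28.9% were lower and 8.9% higher past 2-fold in IRF3/7 than in CTRL, and 4.05% lower and 1.89% higher in COX2i than in CTRL. With COX2i + 5-AZA, 12.5% were lower and 5.79% higher than in CTRL, and 9.13% lower and 5.53% higher than in COX2i. The shares of the methylation, reader, repression and demethylation lists that were lower in IRF3/7 (25.0% to 33.3%) were near that background and are no result about these lists. Of 13 partners of methylation itself, 4 were lower in IRF3/7 than in CTRL and none higher: Lig1 (-1.77), a replication ligase, Cdca7l (-1.39), the remodeller Hells (-1.28), which opens chromatin for methylation, and Cdca7 (-1.08), its partner. The list median was -0.56 and that of all genes -0.49. None of the 13 was past 2-fold between COX2i and CTRL or between COX2i + 5-AZA and COX2i, with medians of 0.23 and -0.16. Between COX2i + 5-AZA and CTRL (median -0.11) 1 was, Dnmt3l, a catalytically inactive cofactor of the de novo enzymes, at 5.80 against 2.36 CPM (1.29, 0.95 to 1.65). Dnmt3l was at 3.05 CPM in COX2i and at 1.36 in IRF3/7. In TAM_cycling it was at 1.40, 1.84 and 4.04 CPM in CTRL, COX2i and COX2i + 5-AZA, so the 5-AZA library was highest in both populations, on 292 and 73 UMIs.

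Of 12 readers of methylated or unmethylated CpG, 1 was higher and 4 lower in IRF3/7 against CTRL, with a median of -0.18. The higher one was Mbd2 (1.01), a reader of methylated DNA that is named here after its values were seen. The lower ones were Cxxc5 (-2.36), which binds unmethylated CpG, Mbd3 (-1.39), a subunit of the NuRD repressor, and the zinc finger genes Zbtb38 (-1.24, but 0.08 at the class mix of CTRL) and Zbtb4 (-1.22). Cxxc5 was also past 2-fold in COX2i + 5-AZA against CTRL (-1.63) and against COX2i (-1.33), with list medians of -0.28 and -0.33 and no other reader past 2-fold, and at -1.44 in TAM_cycling against COX2i. Its levels were low, at 8.69, 1.69, 7.05 and 2.80 CPM in CTRL, IRF3/7, COX2i and COX2i + 5-AZA. No reader was past 2-fold in COX2i against CTRL (median -0.09).

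Of 11 histone and corepressor genes that act with DNA methylation, 3 were lower in IRF3/7, Trim28 (-1.33), Hdac2 (-1.30) and Setdb1 (-1.01), with a list median of -0.36. None was past 2-fold in the other 3 comparisons, with medians of 0.13, -0.09 and -0.30. Of 16 partners of demethylation, 1 was higher and 4 lower in IRF3/7 (median -0.55). The higher one was Gadd45b (1.83), a stress gene linked to demethylation, and the lower ones included Idh2 (-2.15), which makes the cofactor of TET enzymes, the base excision nuclease Apex1 (-1.88) and Idh1 (-1.33), the last named after its values were seen. Gadd45b was at 139, 495, 99.2 and 277 CPM in the 4 libraries, so it was highest in IRF3/7, and higher in COX2i + 5-AZA than in COX2i (1.48) and CTRL (0.99). In TAM_cycling it was at 50.3, 43.0 and 122 CPM in CTRL, COX2i and COX2i + 5-AZA. None of these 16 was past 2-fold between COX2i and CTRL (median -0.03). Against CTRL, 3 were lower with COX2i + 5-AZA (median -0.28), among them Dppa3 (-1.47) and Neil3 (-1.24), a glycosylase. Against COX2i (median -0.31), Gadd45b was higher and 2 were lower, among them Neil3 (-1.02).

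Genes that take up, activate or break down cytidine analogues were read because they handle drugs such as 5-AZA. The kinases that add its first phosphate, Uck1 and Uck2, were at 37.1, 31.3, 36.9 and 30.8 CPM and at 248, 145, 247 and 202 CPM in CTRL, IRF3/7, COX2i and COX2i + 5-AZA. The transporter Slc29a1 was at 68.4, 33.9, 57.6 and 40.1 CPM, and Cda, which deaminates cytidines, at 0.514 CPM or less. Of 16 or 17 genes with enough UMIs, 3 were higher and 5 lower in IRF3/7 than in CTRL (median -0.49), where 8.9% and 28.9% of all genes were, and 1 was higher in COX2i than in CTRL (median 0.17). In COX2i + 5-AZA 4 were higher than in CTRL (median -0.01), and 2 were higher and 1 lower than in COX2i (median -0.29).

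Slc28a2 was past 2-fold in each of the 4 comparisons, Samhd1 in 3 and Dck in 2, and the fourth higher gene, Cda (1.39, -0.10 to 3.19), had 17 and 5 UMIs. Samhd1, which hydrolyses deoxynucleotides, was at 325, 2169, 585 and 1343 CPM in the 4 libraries, Slc28a2, a nucleoside transporter, at 17.9, 392, 49.3 and 148, and Dck, which phosphorylates deoxycytidine, at 50.6, 328, 77.8 and 110. All 3 were lowest in CTRL and highest in IRF3/7, with COX2i + 5-AZA above COX2i. They differed by class as well: in TAM_C1q Samhd1 was at 228, 299 and 455 CPM and Dck at 48.2, 66.3 and 69.5 in CTRL, COX2i and COX2i + 5-AZA, and in Infl_Mono Dck was at 306 in CTRL and 340 in IRF3/7. Nt5e, the ectonucleotidase CD73, was at 112, 2.03, 131 and 71.8 CPM, so IRF3/7 was far below the others (-5.78). The other genes lower in IRF3/7, named after their values were seen, were Dctd (-2.60), Slc29a2 (-1.85), Nme1 (-1.07) and Slc29a1 (-1.01). Rrm2, a subunit of ribonucleotide reductase and an S-list gene, was lower in COX2i + 5-AZA than in COX2i (-1.38).

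In the same non-cycling cells the replication list of 40 genes had medians of -0.40, 0.27, -0.32 and -0.62 in the 4 comparisons and the mitosis list, with 51 genes, -0.91, 0.42, -0.57 and -1.10. The summed levels of these lists moved less, at -0.18, 0.26, -0.17 and -0.43 for replication and -0.24, 0.32, -0.08 and -0.40 for mitosis. In COX2i + 5-AZA against COX2i, 8 of 40 and 28 of 51 were lower past 2-fold, against 9.13% of all genes, and none higher, so the lower Uhrf1 stood among lower proliferation genes. Of germline genes that methylation is known to silence, 6 of 16 were in the table and 3 to 5 had enough UMIs. Ddx4 was higher in IRF3/7 (2.37, on 33 and 14 UMIs), Slc25a31 in COX2i (1.67) and COX2i + 5-AZA (1.10) against CTRL, the latter with an interval of -0.05 to 2.39, and Dpep3 was lower in COX2i + 5-AZA than in COX2i (-1.14). The list medians were 0.53, 0.41, 0.33 and -0.41, over these 3 to 5 genes. No germline gene was past 2-fold higher with 5-AZA than with celecoxib alone, where 4 had enough UMIs. In TAM_cycling, no list had more than 2 genes higher or 1 lower past 2-fold in any comparison.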

How the data were processed

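CD45+ cells of 4 pooled libraries (3 tumours each, 1 library per group) were fixed for 22 h and profiled with the probe-based Chromium Flex assay. The authors deposited raw UMI counts per gene and cell, made with Cell Ranger 7.1.0 on mm10 and filtered by them on detected genes per cell, on mitochondrial and ribosomal reads, and on genes found in several experiments. No normalised value was used. Cell classes (17 names) were taken from the deposited annotation, which rests on clusters of an integration of several experiments, so class borders depend on it. Groups came from the sample labels, and the members were matched by symbol. Probe positions and near-identical gene copies were not checked.

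UMIs were summed over the cells of a class or population in each library and divided by the total (CPM). Exact Poisson intervals were given for levels, exact binomial (Clopper-Pearson) intervals for shares and exact conditional intervals for ratios, all at 95% and for counting error only, and a count of 0 was given the limit of 3 counts. Class values needed 50 cells. Calls past 2-fold were restricted to genes whose UMIs, added over the pair of libraries, reached 20. With 1 library per group no test was run. Cells of TAM_cycling with at least 10 list UMIs were placed in the cycle, and patterns were correlated over class sums for members of at least 5 CPM and genes of at least 20 CPM. No doublet caller was run. The interval and ratio code was tested on simulated data. Python 3.11.15, numpy 2.4.6, scipy 1.17.1, pandas 2.3.3 and matplotlib 3.10.9 were used.

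The members and lists were chosen with earlier results of these data known. Named were the 7 members, per list and comparison up to 4 genes with the largest ratio past 2-fold, Uck1, Uck2, Cda, Dck and Slc29a1, and the 3 genes most alike to each member in pattern. The split by Mki67 or Top2a was extended to cDC2, NK cells and TAM_cycling after the data were seen, and the shares of cells with such a UMI were added then too. The alternatives were median-of-ratios size factors, cells with more than 2000 genes, leaving out the 5% deepest cells, the mean over cells, thinning to 2000 UMIs (which kept 81.0% of IRF3/7 cells and 93.0% to 96.9% of the others), a fold of 1.5, at least 200 UMIs, the class mix of the control library, and populations with TAM_cycling or without cells holding a Mki67 or Top2a UMI. List genes outside the table were not analysed here, among them 10 of 16 germline genes. The values of 1 list gene that the rule would name are not reported here.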

Additional observations from a re-analysis of the deposited data

Results flagged for a closer look

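Some ratios lay beyond both 0 and the class's median gene, intervals included, but in opposite directions in different classes. The difference between classes was not tested, and classes of 1 library are not replicates.

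Uhrf1 in COX2i + 5-AZA against CTRL was at 0.29 in Myofibrobl but at -2.22 in Infl_Mono (12 UMIs in CTRL) and -0.48 in TAM_C1q. In the same library against COX2i it was at 0.19 in Myofibrobl, and at -0.97 in Monocyte_1, -1.02 in TAM_C1q, -0.80 in TAM_Spp1, -0.16 in TAM_cycling and -1.58 in cDC2.

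Dnmt3a in COX2i + 5-AZA against CTRL was at 0.37 in TAM_Spp1 and 0.42 in cDC2, and at -0.80 in Infl_Mono and -0.51 in Myofibrobl. Against COX2i it was at 0.61 in cDC2 and -0.49 in Myofibrobl.

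In COX2i against CTRL, Tet2 was at 0.38 in Myofibrobl and -0.25 in TAM_Spp1. Tet3 in that comparison was at 0.27 in Myofibrobl, 0.17 in TAM_cycling and -0.22 in TAM_Spp1.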

How the results depend on the processing

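The number of members past 2-fold changed with several settings. Over all cells, IRF3/7 against CTRL had 1 member, which became 2 with size factors, without the 5% deepest cells or at the class mix of CTRL, 0 among cells with more than 2000 genes, and 4 at a fold of 1.5. COX2i + 5-AZA against CTRL had 1, which became 0 after thinning, with at least 200 UMIs or at the class mix. Against COX2i the same library had 2, which became 1 with size factors, more than 2000 genes, thinning or 200 UMIs, and 0 at the class mix. In the non-cycling cells, IRF3/7 against CTRL had 1, which became 0 with the mean over cells and 3 at a fold of 1.5 or with TAM_cycling included. That member, Tet2, was also under 2-fold where the count stayed at 1, after thinning (0.79), at the class mix (0.97) and without cells holding a Mki67 or Top2a UMI (0.99), since Dnmt3b (-1.09) after thinning and Uhrf1 at the class mix (-3.30) and without those cells (-1.18) were past it instead. COX2i + 5-AZA against COX2i had 1, which became 0 with size factors or at the class mix. COX2i against CTRL went from 0 to 1 at a fold of 1.5, over all cells and in the non-cycling cells. Zbtb38 in the non-cycling cells of IRF3/7 against CTRL turned from -1.24 to 0.0822 at the class mix. The cause of these changes was not tested. In TAM_cycling the count of members did not change under any setting run.

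Of single ratios, 35 of 70 moved by more than their counting interval with size factors, with 9 changes of sign, and 35 of 50 at the class mix, with 9. Thinning moved 23 of 64, the mean over cells 16 of 70, leaving out the deepest cells 14 of 70, more than 2000 genes 12 of 70, TAM_cycling included 10 of 24, and leaving out cells with a Mki67 or Top2a UMI 1 of 24. No paired analysis was possible because each group was 1 library, and for the same reason no library could be left out. Depth limited Tet1 and Dnmt3b most, and the IRF3/7 library was the shallowest.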

Other observations

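The IRF3/7 library held 20 TAM_cycling cells, too few for the comparisons. In them Dnmt1 was at 380 CPM (288 to 491) and Uhrf1 at 406 CPM (311 to 520), counting error only.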
